A study of Mus musculus with 31 samples.

Results

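Toll-like receptors (TLRs) are germline-encoded receptors that bind microbial products and molecules of damaged cells, and they are read here at the level of their transcripts. The set holds 10 genes, chosen by symbol from the 15648 genes of the count table: the receptors Tlr1, Tlr2, Tlr4, Tlr3, Tlr7, Tlr9 and Tlr13, the co-receptor Cd14, the adaptor Myd88 and the kinase Irak4. All 10 symbols were found, each on a single gene, and all were tested.

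The left hippocampus of 31 adult OT-I/Rag1-/- mice was sequenced in bulk, 1 library per mouse. In these animals the transgenic OT-I receptor makes CD8 T cells specific for ovalbumin (OVA), and the loss of RAG1 leaves no B cells and no T cells with receptors of their own. Mice received an adeno-associated virus (rAAV) in both dorsal CA1 regions, either rAAV-hSyn-OVA-mCherry (rAAV-OVA), which makes OVA and the fluorescent protein mCherry under the neuronal hSyn promoter, or rAAV-hSyn-mCherry (rAAV-control), which makes mCherry alone. Tissue was taken at 2, 5, 8 or 28 days. Each of the 8 groups held 4 mice, except rAAV-control at 8 days with 3. All mice, controls included, thus carried the OT-I receptor, lacked RAG1 and had been injected and given ketoprofen. The labels name a batch 1 of 23 mice and a batch 2 of 8 mice, which are not described further. The mice of 5 and 8 days were all in batch 1, whereas the groups of 2 and 28 days held 2 mice of each.

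TLRs 1, 2 and 4 sit at the cell surface and bind lipopeptides or lipopolysaccharide, the latter handed to TLR4 by CD14. TLRs 3, 7, 9 and 13 sit in endosomes and bind nucleic acids. All of them except TLR3 signal through MYD88, which gathers IRAK4 and related kinases and ends in NF-κB, interferon regulatory factors and cytokine genes. In the brain microglia carry most TLRs, and astrocytes are known for TLR3.

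The libraries held between 19046977 and 57407902 counts, with a median of 27024978 and a next highest total of 32698495. The largest library was that of D755, a control of 5 days. Neuronal transcripts were plentiful throughout, 7 markers summing to between 3723 and 12432 counts per 1000000 (CPM). Of the 8 T cell markers only Cd8a and Lck passed the authors' filter, and together they stood at 0.778 to 3.03 CPM in the rAAV-control mice other than D720. Some mice stood apart from their group. In rAAV-control mouse D720 at 8 days the summed level of 8 pan-myeloid markers (Aif1, Csf1r, Itgam, Spi1, Tyrobp, Laptm5, Ptprc and Fcer1g) was 987 CPM against 239 and 356 CPM in the other controls, and its T cell markers reached 16.1 CPM. In D755 the pan-myeloid sum was 563 CPM and the T cell sum 1.11 CPM. In rAAV-OVA mouse D844 at 28 days the sums were 329 and 10.2 CPM, where the median of its group was 1215 and 179 CPM. D844 also differed in neuronal transcripts, with 692 CPM of Gad1 and 630 CPM of Gad2, the enzymes of GABA synthesis, against 159 to 228 and 82.3 to 144 CPM in the other 3 mice of its group. Its level of Slc17a7, a glutamate transporter, was 213 CPM, the lowest of the group. The members' Log2FC without D755, D720 and D844 are given with each day's results. At 8 days rAAV-OVA mouse D700 had the highest sums of its group, 1773 CPM for the pan-myeloid and 229.5 CPM for the T cell markers, where the other 3 mice had 870 to 1275 and 75.5 to 187 CPM.

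Stretches of DNA upstream of 3 members are shown, because their windows hold short motifs of transcription factors that act in this pathway. RefSeq promoter entries (GRCm38.p6) matched 7 of the 10 members, and none was at hand for Tlr4, Tlr7 and Cd14. The 250 bases before each RefSeq start were searched on both strands for the interferon-stimulated response element (ISRE), TTCNNNGAA (gamma-activated site, GAS), TGANTCA (AP-1), GAGGAA (the core bound by PU.1, a myeloid factor) and the κB consensus. The printed stretches end before the first start that GENCODE M21 annotates and cross no annotated exon, and capitals mark the motifs.
Myd88 (chr9:119340042-119340268, minus strand): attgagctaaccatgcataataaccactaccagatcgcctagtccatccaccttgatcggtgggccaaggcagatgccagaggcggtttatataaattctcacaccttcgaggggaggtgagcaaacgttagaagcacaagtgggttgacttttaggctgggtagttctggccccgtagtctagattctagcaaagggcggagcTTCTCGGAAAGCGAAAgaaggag
Tlr2 (chr3:83841768-83841858, minus strand): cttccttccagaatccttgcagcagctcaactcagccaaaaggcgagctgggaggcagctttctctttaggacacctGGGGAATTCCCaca
Tlr9 (chr9:106222348-106222597, plus strand): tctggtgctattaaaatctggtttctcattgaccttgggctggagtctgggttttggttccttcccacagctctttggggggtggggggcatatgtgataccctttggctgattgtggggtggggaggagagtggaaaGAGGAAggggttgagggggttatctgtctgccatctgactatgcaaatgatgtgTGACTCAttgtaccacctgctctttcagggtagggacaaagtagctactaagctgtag
The Myd88 stretch held a GAS 46 bases and an ISRE 40 bases before the RefSeq start, which overlap each other. The Tlr2 stretch held a κB match on both strands, and the Tlr9 stretch PU.1 and AP-1 matches. Among all 32851 promoter entries, 7.02% held the GAS, 2.98% the ISRE, 6.75% the AP-1 motif, 23.3% the PU.1 core and 3.9% the κB consensus in the same length. Of the others, Tlr1 had GAS and PU.1 matches and Tlr13 a PU.1 match, Tlr3 had a κB match outside any stretch that could be printed, and Irak4 had none of these letters. These matches are descriptions of letters, and binding was not measured.

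Levels of different genes were compared per kilobase (kb) of exons, since longer transcripts give more counts. The length was the union of all annotated exons of a gene, which can exceed that of the transcripts present. In rAAV-control mice at 28 days, Tlr3 had the highest level, 3.80 ± 0.29 CPM per kb (mean ± SD, n = 4). Its mice, from 3.48 to 4.15, lay above all others. Myd88 followed with 2.21 ± 0.49, Cd14 with 1.63 ± 0.24 and Tlr7 with 1.49 ± 0.64 CPM per kb, and the ranges of these neighbours overlapped. Tlr13 had 0.865, Tlr2 0.790, Tlr9 0.472, Tlr4 0.403, Irak4 0.373 and Tlr1 0.234 CPM per kb, again with each range overlapping the next.

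In rAAV-OVA mice at 5 days the order differed at its top. Tlr2 led with 20.2 ± 3.47 CPM per kb and did not overlap Myd88, which had 11.7 ± 3.13. Cd14 with 7.69, Tlr3 with 7.64, Tlr9 with 6.38, Tlr7 with 5.67 and Tlr13 with 5.22 CPM per kb formed a run of overlapping neighbours. Below them came Tlr1 with 3.18, Tlr4 with 2.53 and Irak4 with 1.44 CPM per kb, each separate from the next. Tlr2 held the first place in this group and the sixth in controls of 28 days, and Tlr3 the fourth and the first, but these groups differ in day as well as in antigen. In controls of the same day, 5 days, Tlr3 was the first with 3.96 and Tlr2 the fourth with 1.89 CPM per kb. Tlr2 was the second in controls of 2 and of 8 days, where its range overlapped those of its neighbours.

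**Figure D1:**
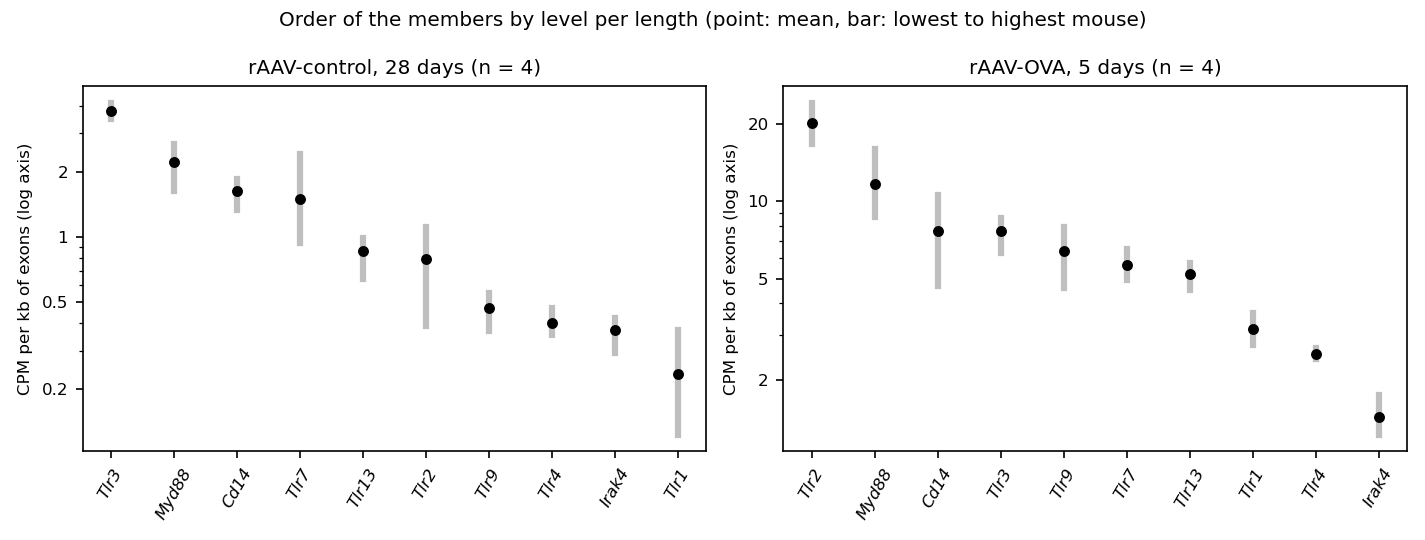
Level of each member per kb of exons on a log axis, in rAAV-control mice at 28 days and in rAAV-OVA mice at 5 days. Points are means of 4 mice and bars run from the lowest to the highest mouse. Tlr3 leads on the left with 3.80 and Tlr2 on the right with 20.2 CPM per kb.

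At 2 days no member was called, which required an FDR up to 0.05 together with a Log2FC of 0.66 or more in either direction, and neither did any gene in the table (0% called). The lowest FDR of any gene was 0.214 with edgeR's quasi-likelihood test, and 1428 genes had an unadjusted p under 0.05. The values of several members were nevertheless lower with antigen than without. Cd14 stood at 5.89, 5.51, 6.60 and 2.75 CPM in rAAV-OVA mice and at 25.02, 27.4, 6.99 and 9.54 CPM in rAAV-control mice. The groups did not overlap, and the high values were those of the rAAV-control mice of batch 1. Its Log2FC was −1.73 (SE 0.41, unadjusted p = 0.000322, FDR 0.3005). DESeq2 gave it an FDR of 0.0225 and called no other member.

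Tlr2 showed the same split by batch among the controls. It was 7.20, 4.97, 13.3 and 6.17 CPM in rAAV-OVA mice and 28.1, 56.3, 13.3 and 22.1 CPM in rAAV-control mice at 2 days, with a Log2FC of −1.73 (SE 0.66, FDR 0.446). Within batch 1, the Log2FC was −2.80 (FDR 0.282) for Tlr2 and −2.21 (FDR 0.128) for Cd14. Within batch 2, it was −0.86 and −0.82 (FDR 0.867 for both), and each of these fits held 2 against 2 mice. For Tlr13, which in mice senses bacterial ribosomal RNA, the groups did not overlap, from 4.70 to 9.94 and from 10.3 to 23.6 CPM. Tlr7 and Irak4 did not overlap either. In all, 4 members lay lower in every rAAV-OVA mouse, where 1.94% of all genes did, and 4 had an unadjusted p under 0.05 in this direction (Cd14, Tlr13, Tlr2 and Tlr1), where 4.56% of all genes did.

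Tlr3, Tlr4 and Myd88 had the smallest differences at 2 days, with Log2FC values of 0.24 (SE 0.17), −0.15 (SE 0.29) and −0.13 (SE 0.26). The highest rAAV-OVA mouse for Tlr3 was BEC-B542 with 32.2 CPM, against 18.97 to 22.6 CPM in the other 3, and it also had the highest Myd88 level of its group, 15.6 CPM. At 2 days, the pan-myeloid sum ran from 376 to 438 CPM in rAAV-OVA mice and from 462 to 775 CPM in rAAV-control mice. The neutrophil gene S100a8 reached 28.3 CPM in a rAAV-control mouse and no more than 1.47 CPM in rAAV-OVA mice, and no other neutrophil marker passed the authors' filter. Their part in the result was not tested. In bulk tissue, fewer cells of a type and less RNA per cell cannot be told apart.

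**Figure D2:**
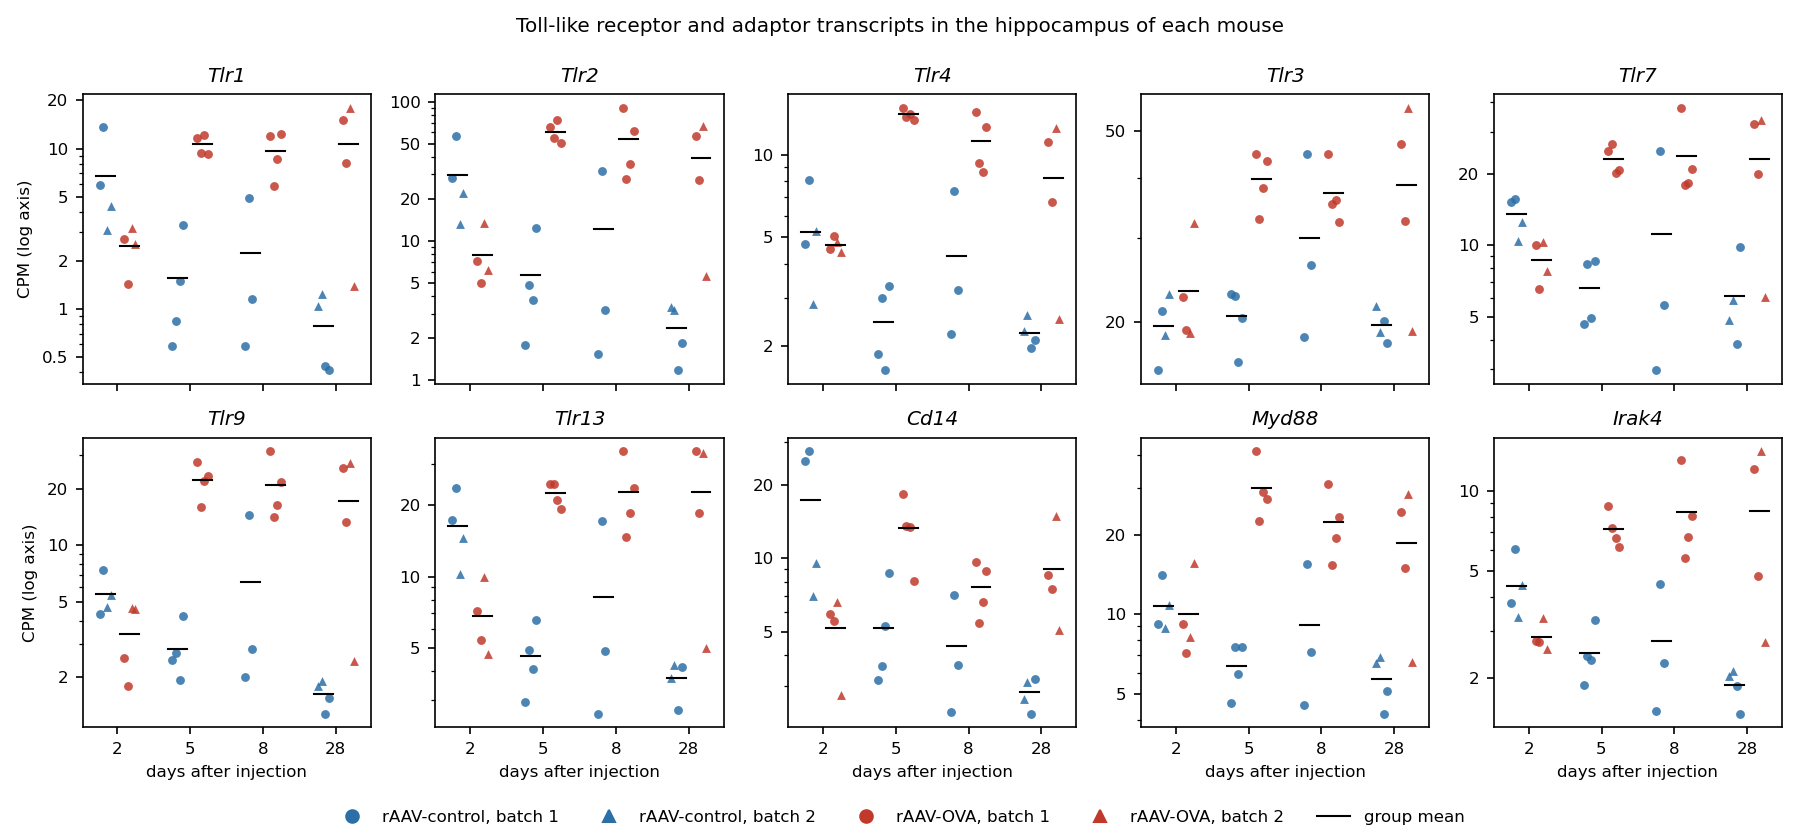
CPM of each member in every mouse on a log axis, by days after injection. Blue marks are rAAV-control and red marks rAAV-OVA mice, circles batch 1 and triangles batch 2, and black lines group means. At 5 days the red marks lie above the blue ones for all members but Cd14, and at 2 days the batch 1 controls stand highest for Tlr2 and Cd14.

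At 5 days 8 of the 10 members rose with antigen, where 9.56% of all genes did so: Tlr1, Tlr2, Tlr4, Tlr7, Tlr9, Tlr13, Myd88 and Irak4. Among the surface receptors, Tlr2, which pairs with TLR1 or TLR6 to bind lipopeptides, was 65.4, 54.4, 73.3 and 50.3 CPM in rAAV-OVA mice. In rAAV-control mice it was 1.79, 4.79, 3.75 and 12.4 CPM, the last in D755. The groups were far apart, with a 10.7-fold ratio of mean CPM. The Log2FC of the model was 2.50 (SE 0.74, FDR 0.0139), and 3.38 without the surrogate variables. Without D755 it was 3.53 and its FDR 0.00138.

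Tlr1, its partner, stood at 9.20 to 12.3 CPM in rAAV-OVA mice and at 0.582 to 3.36 CPM in rAAV-control mice, again highest in D755. Its Log2FC was 1.99 (SE 0.67, FDR 0.0284). Tlr1 and Tlr6 are similar in sequence, and how far their reads could be told apart was not measured here. Tlr4, the lipopolysaccharide receptor, was 14.9, 13.8, 14.1 and 13.4 CPM with antigen and 1.88, 2.996, 1.63 and 3.32 CPM without. It had the narrowest spread in rAAV-OVA mice (14.1 ± 0.63 CPM, n = 4), and its Log2FC was 1.99 (SE 0.32, FDR 9.04e-05). Cd14, which delivers lipopolysaccharide to TLR4, was the member whose groups overlapped, from 8.09 to 18.3 CPM against 3.18 to 8.70 CPM. Its Log2FC of 1.08 (SE 0.45) missed the limit with an FDR of 0.0716, and without D755 it was 1.58 with an FDR of 0.00935.

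Among the endosomal receptors, Tlr9, the receptor for unmethylated CpG DNA, was 27.5, 15.96, 22 and 23.3 CPM with antigen and 2.46, 2.70, 1.93 and 4.22 CPM without. The ratio of mean CPM was 7.85, and the Log2FC 2.21 (SE 0.46, FDR 0.00103). Tlr13 lay between 19.4 and 24.7 CPM against 2.95 to 6.55 CPM, its Log2FC being 1.65 (SE 0.45, FDR 0.00790). Tlr7, which binds single-stranded RNA, lay between 20.1 and 26.7 CPM against 4.65 to 8.56 CPM. Its Log2FC was 1.19 (SE 0.44), and its FDR of 0.0436 was close to the limit. Tlr7 was called in 13 of the 31 fits that each left out a mouse.

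Tlr3, which binds RNA duplexes and does not use MYD88, differed least. It was 44.7, 32.9, 38.1 and 43.4 CPM with antigen and 22.9, 22.7, 16.5 and 20.4 CPM without, and these groups did not overlap. Its Log2FC of 0.61 (SE 0.18, FDR 0.0136) lay below the limit on size, and without surrogate variables it was 0.95 with an FDR of 0.00464. Its control level at 5 days overlapped that of Cd14, the next in order per kb.

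Downstream, Myd88 was 41.4, 22.4, 29.1 and 27.4 CPM with antigen and 4.61, 7.53, 5.94 and 7.50 CPM without. It rose 4.70-fold in mean CPM, with a Log2FC of 1.67 (SE 0.29, FDR 0.000175). Irak4 lay between 6.17 and 8.80 CPM against 1.88 to 3.28 CPM, its Log2FC being 1.02 (SE 0.34, FDR 0.0249). Counted over the set, every rAAV-OVA mouse exceeded every rAAV-control mouse for 9 members, where 21% of all genes did. The median Log2FC of the members was 1.66, and that of all genes −0.01. Tlr2, Tlr4, Tlr9, Tlr13 and Myd88 were called in all 31 fits that each left out a mouse. The fewest calls, 5, came without rAAV-control mouse D724. Without D755 all 10 were called, with Log2FC values of 2.92 for Tlr1, 2.35 for Tlr4, 0.70 for Tlr3, 1.55 for Tlr7, 2.69 for Tlr9, 2.06 for Tlr13, 1.89 for Myd88 and 1.34 for Irak4.

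**Figure D3:**
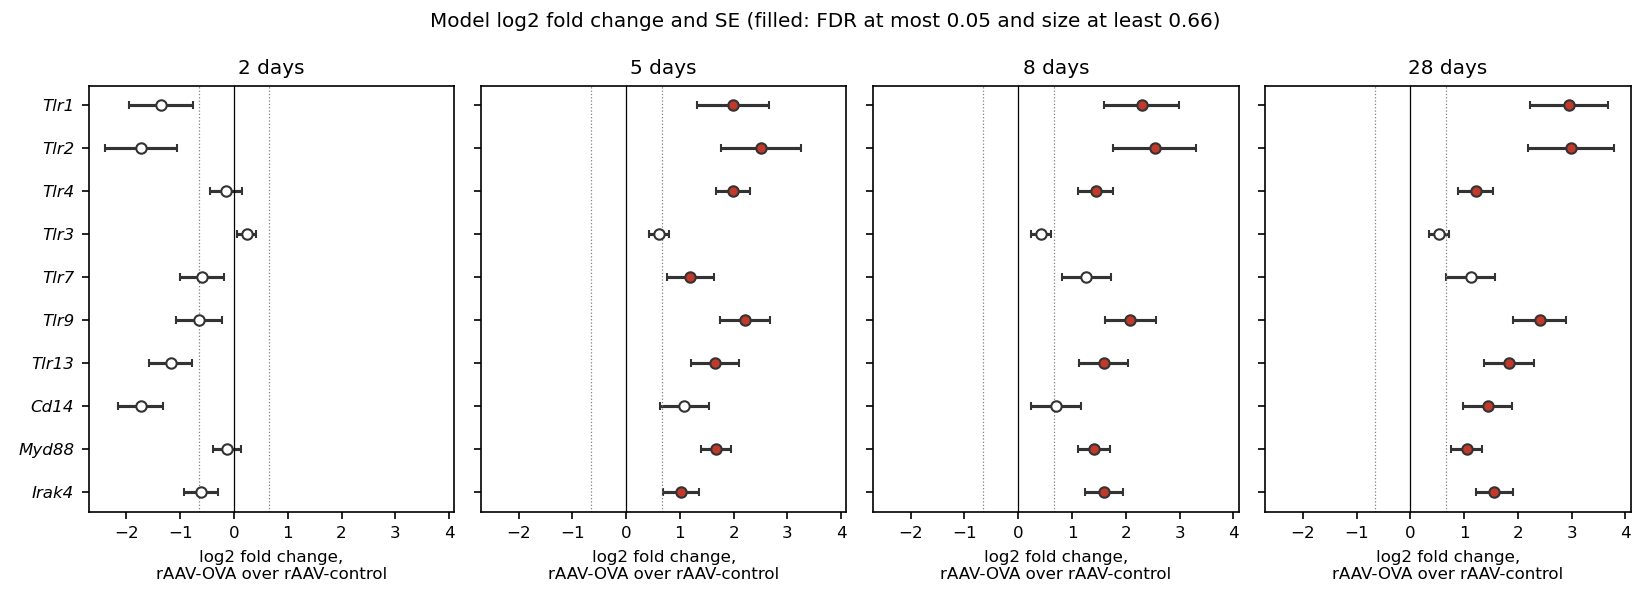
Log2FC of each member, rAAV-OVA over rAAV-control, from the model of 8 groups and 2 surrogate variables, with its SE as bar. Filled points passed both limits, and dotted lines mark 0.66 in either direction. The filled points number 0, 8, 7 and 8 from the earliest to the latest time.

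At 8 days 7 members rose, where 9.36% of all genes did: Tlr1, Tlr2, Tlr4, Tlr9, Tlr13, Myd88 and Irak4. Tlr2 was 90.7, 28.0, 35.9 and 61.8 CPM in rAAV-OVA mice and 1.55, 31.6 and 3.18 CPM in rAAV-control mice. The high control was D720, and it lay within the rAAV-OVA range. The Log2FC of Tlr2 was 2.54 (SE 0.77, FDR 0.0244), and 4.27 with an FDR of 0.00227 without D720. Tlr9 was 31.7, 14.2, 16.4 and 21.8 CPM with antigen and 2.01, 14.4 and 2.83 CPM without, D720 being again the high one.

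Irak4 was 13.02, 5.62, 6.75 and 8.04 CPM with antigen and 1.50, 4.48 and 2.27 CPM without. It had a Log2FC of 1.60 (SE 0.35, FDR 0.00314), and its groups did not overlap. The same held for Tlr1 and Tlr4, so that 3 members did not overlap, where 14.4% of all genes lay higher in every rAAV-OVA mouse. Myd88 ranged from 15.3 to 31.2 CPM against 4.55 to 15.5 CPM, its Log2FC being 1.42 (SE 0.30, FDR 0.00214). Tlr3 in D720 was 44.8 CPM, as high as in the highest rAAV-OVA mouse, and its Log2FC was 0.43 (SE 0.19, FDR 0.114). Cd14 had a Log2FC of 0.70 (SE 0.46, FDR 0.286) and Tlr7 one of 1.27 (SE 0.46, FDR 0.0547). Without D720, 8 members were called, Tlr7 being added with a Log2FC of 2.24 and an FDR of 0.00293. The Log2FC was then 3.26 for Tlr1, 1.79 for Tlr4, 2.96 for Tlr9, 2.35 for Tlr13, 1.74 for Myd88, 1.89 for Irak4, 0.65 for Tlr3 and 1.18 for Cd14, the last 2 not called. With all mice it was 2.30 for Tlr1, 1.44 for Tlr4, 2.08 for Tlr9 and 1.59 for Tlr13.

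The count at 8 days rested on the model. When the 7 mice of that day were fitted alone, none of the 10 members was called, and without surrogate variables 4 members were (Tlr1, Tlr4, Myd88 and Irak4). The share of 9.36% of all genes belongs to the main fit, and none is given here for the other fits. Without rAAV-control mouse D722, which left D696 and D720 as the controls, 0 members were called. The count was 3 without BEC-B541 of 2 days, and 4 without D684, D696, D700 or D845. Without BEC-B541 the Log2FC of Tlr1 was 1.45 (FDR 0.207), and without D696 that of Tlr13 was 0.99 (FDR 0.107). Over the 31 fits that each left out a mouse, the Log2FC of Tlr7 ran from 0.62 to 2.24, called in 4. That of Tlr2 ran from 1.72 to 4.27, called in 23. D720 carried 17.1 CPM of Tlr13, 24.96 CPM of Tlr7 and 7.08 CPM of Cd14, the highest of its group for each, beside its raised pan-myeloid and T cell sums. Their part in the result was not tested.

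At 28 days 8 members rose, where 12.7% of all genes did: the 7 of 8 days and Cd14. Tlr2 was 56.8, 27.3, 67.0 and 5.59 CPM in rAAV-OVA mice, the last in D844, and 1.17 to 3.35 CPM in rAAV-control mice. Although D844 was low, no control reached it. The Log2FC was 2.99 (SE 0.80, FDR 0.00684) and the ratio of mean CPM 16.5. Tlr1 was 15.04, 8.14, 18.1 and 1.38 CPM with antigen, again lowest in D844, and 0.412 to 1.24 CPM without, with a Log2FC of 2.95 (SE 0.73, FDR 0.00396). Tlr9 had a Log2FC of 2.41 (SE 0.49, FDR 0.00102) and Tlr13 one of 1.84 (SE 0.47, FDR 0.00494).

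Cd14 was 8.57, 7.50, 14.9 and 5.07 CPM with antigen and 2.31 to 3.20 CPM without, with a Log2FC of 1.44 (SE 0.46, FDR 0.0184). It is the member that passed at 28 days but not at 5 or 8 days, and its response did not differ between these days by the test given below. Myd88 had a Log2FC of 1.05 (SE 0.29, FDR 0.00815), Tlr4 of 1.22 (SE 0.32, FDR 0.00640) and Irak4 of 1.56 (SE 0.35, FDR 0.00187). Tlr7 stood at 32.5, 19.9, 33.6 and 6.07 CPM against 3.84 to 9.80 CPM, and its Log2FC of 1.13 (SE 0.46) had an FDR of 0.0595. Tlr7 was called at 28 days in 14 of the 31 fits that each left out a mouse. Tlr3 was 47.0, 32.5, 56.0 and 19.2 CPM against 18.1 to 21.6 CPM, and its Log2FC of 0.54 (SE 0.19, FDR 0.0289) was below the limit on size.

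D844 lay among the rAAV-control mice for Tlr3, Tlr4, Tlr7 and Myd88, and 6 members did not overlap at 28 days, where 15% of all genes lay higher in every rAAV-OVA mouse. Without D844 all 10 members were called, with Log2FC values of 3.70 for Tlr1, 3.57 for Tlr2, 1.53 for Tlr4, 0.78 for Tlr3, 1.38 for Tlr7, 3.06 for Tlr9, 2.29 for Tlr13, 1.57 for Cd14, 1.42 for Myd88 and 1.92 for Irak4. Within batch 1 the Log2FC of Tlr2 was 4.87 and of Myd88 2.12, and 8 members were called. Within batch 2, which held D844, they were 3.47 and 1.37, and no member was called in that fit of 2 against 2 mice.

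No change of the response after 5 days was detected. No member differed between 5 and 8 days, where 0.192% of all genes did, between 8 and 28 days, where 0% did, or between 5 and 28 days, where 9.63% did. Tlr4 and Myd88 had the lowest unadjusted p between 5 and 28 days, with a smaller response at 28 days by −0.77 (SE 0.41, unadjusted p = 0.0739) and −0.62 (SE 0.37, unadjusted p = 0.104) on the log2 scale. Tlr1 went the other way, by 0.95 (SE 0.86). Under edgeR's quasi-likelihood test 0 members had an unadjusted p under 0.05 in any of these comparisons, and DESeq2 called 0. Tlr1, Tlr2, Tlr4, Tlr9, Tlr13, Myd88 and Irak4 passed the limits at 5, 8 and 28 days.

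Between 2 and 5 days, by contrast, the response differed for 9 of the 10 members, where 11.9% of all genes had a more positive response at 5 days. This contrast was added after the values of both days had been seen. For Tlr2 the response was higher at 5 days by 4.23 (SE 1.03, FDR 0.00565) on the log2 scale, for Tlr1 by 3.35 (SE 0.92), for Tlr9 by 2.86 (SE 0.63) and for Cd14 by 2.82 (SE 0.62, FDR 0.00285). For Myd88 the difference was 1.80 (SE 0.39) and for Irak4 1.64 (SE 0.46). The exception was Tlr3, with 0.38 (SE 0.25, FDR 0.292).

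In rAAV-control mice, which had the injection without OVA, 4 members were higher at 2 days than at 28 days, where 2.82% of all genes were. Tlr2 fell from 29.9 ± 18.6 to 2.38 ± 1.05 CPM (n = 4 each), a Log2FC of 3.33 (SE 0.75, FDR 0.0123) for 2 over 28 days. Cd14 went down from 17.3 ± 10.5 to 2.82 ± 0.42 CPM. The Log2FC was 2.39 (SE 0.44, FDR 0.00327), and no value at 28 days reached the lowest at 2 days, 6.99 CPM. Tlr1 had a Log2FC of 2.83 (SE 0.67, FDR 0.0169) and Tlr13 one of 1.87 (SE 0.43, FDR 0.0144). Tlr3 stayed between 15.9 and 22.9 CPM at both times, with a Log2FC of −0.13 (SE 0.17). Within batch 1, the Log2FC was 4.87 for Tlr2 and 3.30 for Cd14, and within batch 2 it was 2.47 and 1.54, the latter with an FDR of 0.0578. Without rAAV-control mouse D743 of 2 days, or D705 of 28 days, 1 member was called (Cd14), and without rAAV-OVA mouse D844, which entered only through the shared model, 7 were. Other markers were higher at 2 days as well. Of the pan-myeloid genes 4 of 8 were called, with sums of 462 to 775 CPM at 2 days and 230 to 261 CPM at 28 days. Of 6 monocyte markers 3 were called (Ccr2, Chil3 and Ms4a4c), and S100a8 had a Log2FC of 4.71 (SE 1.05, FDR 0.0114). Microglial, border-associated macrophage and astrocyte lists each had 2 genes called higher. Their part in the result was not tested.

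Pan-myeloid, monocyte and T cell markers rose at the same times as the members, and not all myeloid lists did. At 5, 8 and 28 days, 2226, 1556 and 2750 of the 15648 genes were called in either direction. Of these, 1496, 1464 and 1990 rose, which is 9.56%, 9.36% and 12.7% of all genes. Lists of few genes give no firm share to set beside these. The pan-myeloid sum was 1048 to 1228 CPM in rAAV-OVA and 288 to 563 CPM in rAAV-control mice at 5 days, and 7 of its 8 genes were called at 5 and 8 days and 8 at 28 days. Among 6 monocyte markers (Ccr2, Ly6c2, Plac8, Chil3, Ms4a4c and Vcan), 5, 5 and 4 rose from day 5 to day 28, and their sum on day 5 was 210 to 356 CPM against 16.6 to 26.6 CPM. Both T cell markers, Cd8a and Lck, rose at the 3 later times, and at 5 days Cd8a was 41.0 ± 6.18 CPM against 0.491 ± 0.586 CPM (n = 4 each). Of the 9 microglial markers tested, 2 rose and 1 fell on day 5, none was called on day 8 and 6 rose on day 28, and their sum was 788 to 838 CPM against 428 to 621 CPM at 5 days. None of the 5 markers of border-associated macrophages was called on day 5 or 8 and 1 rose on day 28, and neither of the 2 dendritic cell markers nor the neutrophil gene S100a8 was called between rAAV-OVA and rAAV-control mice of any day. Of 7 neuronal markers, 1 fell on day 5 (Camk2a), none was called on day 8 and 4 fell on day 28. Gad1 and Gad2 were not called on any of these days. On day 28 both lay below every control in the 3 rAAV-OVA mice other than D844 and above every control in D844, the controls having 305 to 357 CPM of Gad1 and 159 to 182 CPM of Gad2. Oligodendrocyte markers went down at 5 days, 3 of 4 being called. None of the 4 endothelial markers was called at 5 or 8 days and 3 rose at 28 days, and of 5 astrocyte markers 1 fell on day 5 (Gja1) and 1 rose on day 28 (Gfap). Their part in the results was not tested. Neither list for B cells nor that for NK cells had a gene in the table.

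Each member was therefore also read per mouse against the mean log2 CPM of the 8 pan-myeloid genes. T cells also express 2 of these, Ptprc and Laptm5, and Ptprc rose most of the list, with a Log2FC of 3.09 at 5 days. At 5 days this mean was higher by 2.16 in rAAV-OVA than in rAAV-control mice, more than the difference of Tlr3 (0.95), Cd14 (1.40), Irak4 (1.53) or Tlr7 (1.84). Tlr2 exceeded it, with 3.72, and so did Tlr1 with 2.99, Tlr9 with 2.97, Tlr4 with 2.54, Tlr13 with 2.31 and Myd88 with 2.21. Relative to the pan-myeloid mean, Tlr2 was higher with antigen by 1.56, 1.28 and 1.22 at the 3 later times, and at 5 and 28 days its groups did not overlap. Tlr1 was higher by 0.83, 0.69 and 0.89. Tlr3 was lower by 1.22 at 5 days and, with values of −1.48 and −1.54, at 8 and 28 days, its groups overlapping at none of the 3 times. At 2 days the sign was the opposite for both genes, with 0.90 for Tlr3, whose groups did not overlap, and −1.14 for Tlr2, whose groups did. Tlr4 was higher by 0.62 at 2 days without overlap. Against this mean Cd14 was lower at all 4 times, with values of −0.88, −0.76, −0.96 and −0.85, and its groups overlapped at 28 days alone.

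Tlr4 and Myd88 changed sign in this measure, from 0.38 and 0.05 at 5 days to −0.78 and −0.88 at 28 days, where the groups of both did not overlap. The choice of reference mattered. Against Csf1r alone, the receptor of a myeloid growth factor, Tlr2 was higher by 2.59, 2.23 and 2.35 in the same order. Tlr4, Myd88, Irak4 and Tlr7 were then higher with antigen at 5, 8 and 28 days, and Tlr3 remained lower with −0.19, −0.53 and −0.41. Cd14, lower against the pan-myeloid mean, was higher against Csf1r at 5 and 28 days. With Ptprc and Laptm5 left out of the mean, a reference added after these values were seen, Tlr2 was higher by 1.83, 1.56 and 1.53 and Tlr3 had −0.94, −1.20 and −1.23. Of 40 values, 3 then had the other sign, those of Tlr13 and Irak4 at 8 days and of Tlr13 at 28 days. These ratios were not tested. They give unequal change between genes, and the share of cells and the RNA per cell remain mixed in them.

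**Figure D4:**
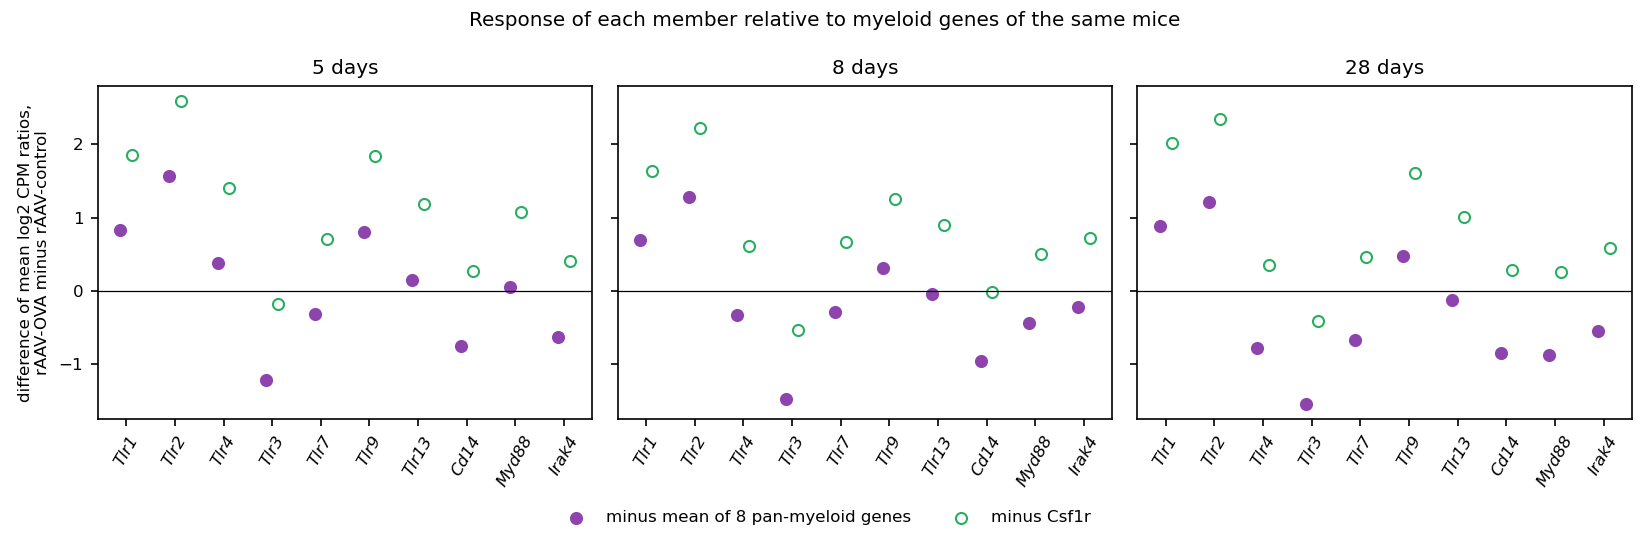
Difference between rAAV-OVA and rAAV-control mice in the log2 ratio of each member to myeloid genes, at 5, 8 and 28 days. Filled points use the mean of 8 pan-myeloid genes and open points Csf1r. Tlr1, Tlr2 and Tlr9 lie above 0 and Tlr3 below 0 with both references. The sign of every other member depends on the reference at 28 days, and that of Irak4 and Tlr7 also at 5 and 8 days.

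Across the 8 group means, Irak4 and Tlr7 had the profiles most like each other among the members, with a root mean square difference of 0.090 in centred log2 CPM. Tlr4 and Myd88 came next with 0.136. Tlr2 and Tlr3 were the least alike, with 1.37. Among all genes, Tlr7 was nearest to Tep1 (0.072), and Irak4 to Tep1 (0.085) and Gmip (0.087). Tlr2 was nearest to Igsf6 (0.181), Tlr8 (0.213) and Bcl3 (0.249), and Tlr4 to Parp12 (0.103), Myd88 and Irf9 (0.138). Tlr1 lay nearest to Melk (0.072), Kif20a (0.118) and Esco2 (0.152), which act in cell division. Pnp (0.129) and Tlr4 were among the genes nearest to Myd88. These 8 means share their libraries, so the values describe likeness only.

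Of 58 other pathway genes listed by role, 52 were tested. Over 5, 8 and 28 days, 26, 27 and 27 of them rose, where 9.56%, 9.36% and 12.7% of all genes did, and Sarm1 alone fell, on the last day. Their median Log2FC was 1.141, 1.34 and 1.33. At 2 days none was called, with a median of −0.21, and 21 genes rose at 5, 8 and 28 days. The other receptors all rose at each of these times. Tlr8, a relative of Tlr7, had a Log2FC of 3.46 (SE 0.73) at 5 days, Tlr12 2.30 (SE 0.43), Cd180, a TLR4-like receptor, 2.20 (SE 0.45) and Tlr6 1.37 (SE 0.38). Tlr5 and Tlr11 were not in the table.

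Among 7 accessory proteins and chaperones, 3 rose at 5 and 8 days and 4 at 28 days. The scavenger receptor Cd36 had a Log2FC of 3.43 (SE 0.39) at 5 days, Ly86, the partner of CD180, 1.54 (SE 0.37) and Unc93b1, which carries the endosomal receptors to their compartment, 1.38 (SE 0.41). Lbp, Cnpy3 and Hsp90b1 were not called at any time. Of 4 other adaptors, Tirap, which bridges TLR2 and TLR4 to MYD88, rose at 5 days with 0.80 (SE 0.24). Ticam2, which leads from TLR4 to TRIF, had 1.22 (SE 0.47, FDR 0.0508) at 5 days and rose at 8 and 28 days, and Sarm1, which is also a neuronal NAD-cleaving enzyme, fell at 28 days with −0.69 (SE 0.14). Ticam1, which encodes TRIF, was never called.

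The kinases and ubiquitin ligases moved least. Among 15 of them, 3 rose at 5 and 8 days, 2 did at 28 days, and 12 were never called. The share on the last day was near that of all genes. The response of Map3k7, Tab3 and Tbk1 was lower at 28 than at 5 days, with log2 differences of −0.39 (SE 0.07), −0.52 (SE 0.16) and −0.42 (SE 0.10), each with an FDR under the limit. In this comparison 9.63% of all genes differed, and of the 52 pathway genes these 3 alone did. The kinases and ligases that rose at 5 days were Ikbke with 1.96 (SE 0.60), Ripk1 with 1.23 (SE 0.25) and Chuk with 0.72 (SE 0.20). The median Log2FC of this role was 0.19 at 5 days, where Irak4 had 1.02. Among 6 inhibitors, Sigirr, an inhibitory relative of the receptors, rose with 1.23 (SE 0.41) and Tnfaip3, which removes ubiquitin chains, with 1.07 (SE 0.35). Irak3, a kinase-like brake on MYD88 signalling, had 1.40 (SE 0.54, FDR 0.0509) at 5 days and rose at 8 and 28 days. Tollip, Nfkbia and Cyld were never called.

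Of 6 transcription factors, 4 rose on day 5, 3 on day 8 and 5 on day 28. Irf7, the factor of interferon genes downstream of TLR7 and TLR9, had a Log2FC of 3.57 (SE 0.68), Irf5 1.95 (SE 0.37) and Rel 1.42 (SE 0.31) at 5 days, and Irf3 was never called. Among 10 induced cytokines and surface proteins, 9 rose at 5 and 8 days and 8 at 28 days. The T cell-attracting chemokines Cxcl9 and Cxcl10 had 5.49 (SE 0.90) and 4.81 (SE 0.87), and Il1b had 4.61 (SE 0.80). These genes are induced by interferon-γ and other signals as well as by TLRs, and which signal acted was not measured. Il6, Il12a, Il12b and Ifnb1 were not in the table.

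**Figure D5:**
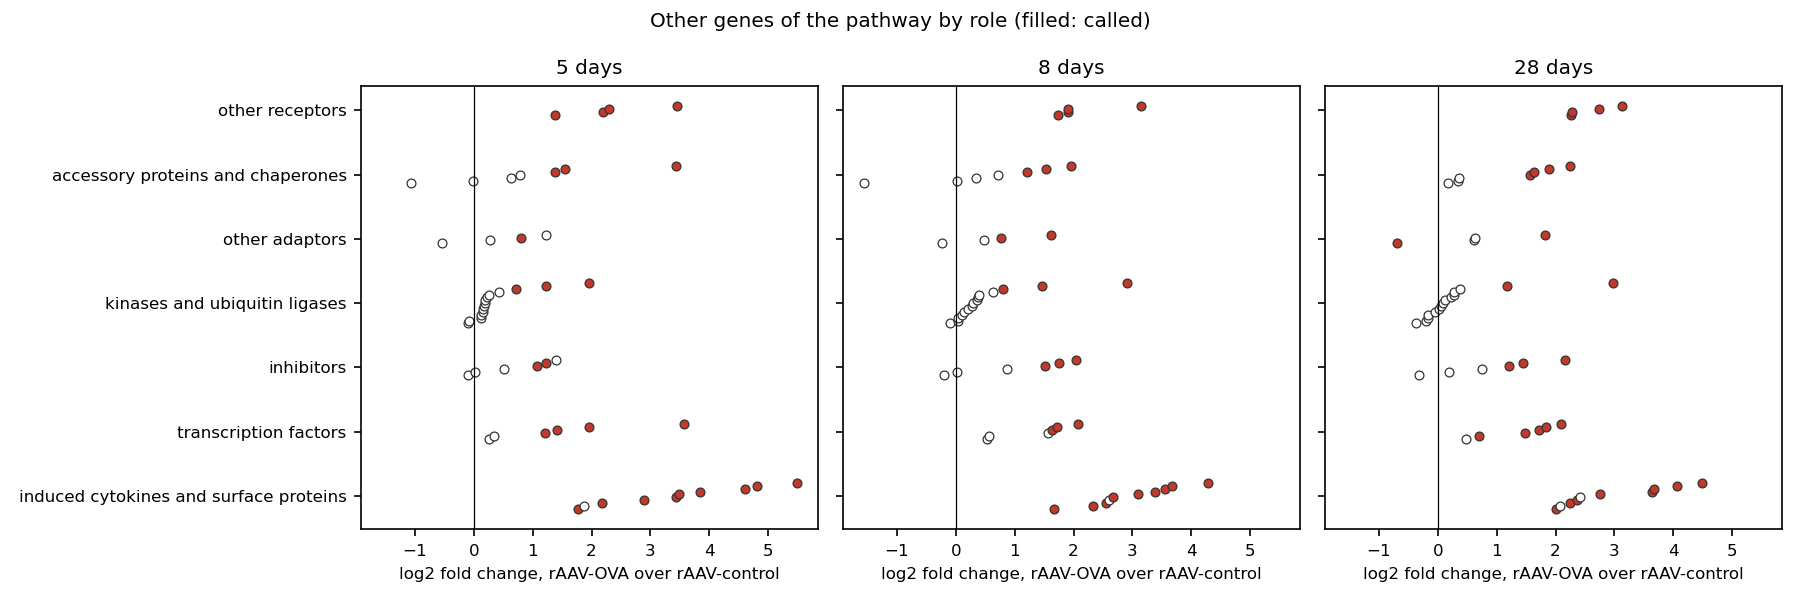
Log2FC of 52 other pathway genes at 5, 8 and 28 days, 1 point per gene, by role. Filled points passed both limits. All 4 other receptors are filled at each time, and 12 of 15 kinases and ubiquitin ligases are never filled.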

How the data were processed

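The authors trimmed reads with fastp, quantified them with salmon 1.8.0 on GENCODE M29 (salmon and DESeq2 1.36.0 are also named in the submitters' processing notes), summed them to genes with tximeta and removed genes that did not reach 15 counts in 15 or more of the 31 mice. The values are expected counts, deposited as whole numbers without normalization, and 0 cells differed between both tables. The filter removes transcripts made only in the 12 rAAV-OVA mice of 5 to 28 days. Between 19046977 and 57407902 counts per mouse set the precision.

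edgeR 4.0.16 in R 4.3.3 was run on all 15648 genes with TMM factors (0.897 to 1.11), 8 groups and 2 surrogate variables (sva 3.50.0). The quasi-likelihood F-test was used, with FDR by Benjamini-Hochberg and limits of 0.05 for FDR and 0.66 for the absolute Log2FC. The study used the same limits with DESeq2 on shrunken Log2FC (ashr), whereas the Log2FC here are edgeR estimates without that shrinkage. Interactions had no limit on Log2FC. CPM are counts per 1000000 after TMM scaling, and log2 CPM used a prior count of 2. Exon lengths, gene starts and promoters came from GENCODE M21 and RefSeq (GRCm38), not the build of the counts. The steps were tested on simulated data. Replicates of a group differed by 11.9 to 296 in chi-square per gene, where counting noise alone gives about 1.

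The members and all lists were chosen with earlier results of these data known. Pathway genes were named by a rule, the 3 largest absolute Log2FC at 5 days per role among those called at 5, 8 or 28 days, plus genes never called where a role had 5 or fewer. Tlr6, and Map3k7, Tab3 and Tbk1 for their difference between 28 and 5 days, are named beyond it, after their values were seen. Alternatives were DESeq2 1.42.0, its size factors, no covariates, the batch label, genes with 15 counts in every mouse, FDR alone, mice of the day alone, each batch alone and each mouse left out. A monocyte marker and 1 of the genes nearest to Myd88 are not reported here, and the monocyte values cover the other markers of the list.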

Additional observations from a re-analysis of the deposited data

Results flagged for a closer look

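Of 70 combinations of member and group of 4 mice, 1 held a mouse far from the others by the gap of Dixon's test, and chance gives about 1 in 20. Tlr7 in rAAV-OVA mouse D700 at 8 days was 38.0 CPM, and the other 3 mice lay between 17.99 and 20.9 CPM. The same mouse was the highest of its group for Tlr2, Tlr4, Tlr3, Tlr9, Tlr13, Cd14, Myd88 and Irak4, and for the pan-myeloid sum (1773 CPM against 870 to 1275 CPM), the sum of 6 monocyte markers (308.5 against 98.4 to 199.7 CPM) and the T cell sum (229.5 against 75.5 to 187 CPM). Their part in the result was not tested.

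The response to antigen differed between 2 and 5 days in a test of the difference itself for 9 members. The difference, 5 minus 2 days, was 3.35 for Tlr1, 4.23 for Tlr2, 2.13 for Tlr4, 1.79 for Tlr7, 2.86 for Tlr9, 2.83 for Tlr13, 2.82 for Cd14, 1.80 for Myd88 and 1.64 for Irak4, all on the log2 scale, with FDR values from 0.00139 to 0.0372 in edgeR's quasi-likelihood test.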

How the results depend on the processing

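No paired analysis was possible because the labels give every mouse a name of its own and no number ties mice of different groups. The members' directions held under nearly all alternatives: 7 of 399 values changed sign at 2 days, 0 of 379, 379 and 399 did at the later times, and 1 of 389 did for the controls. For each member, 31 of these fits left out a single mouse, so they share most data with the main fit. A call was lost in 25, 41 and 12 values at 5, 8 and 28 days and gained in 23, 7 and 31. At 2 days, DESeq2 called 1 member (Cd14) where edgeR called 0. At 8 days, 4 members were called in place of 7 without surrogate variables and 4 with the batch label as covariate, and 0 with the mice of the day alone. At 28 days, 0 were called in batch 2 alone. For the controls, 2 against 28 days, 7 were called in place of 4 with DESeq2, 7 with D755 and D720 left out together (an alternative chosen after seeing the data) and 2 in batch 2 alone. The cause was not tested. Shares of all genes are given for the main fit alone. A loss of members is therefore not told apart from a fit with few calls. Leaving out each mouse in turn gave 5 to 10, 0 to 8 and 7 to 10 members from day 5 to day 28, 1 to 7 for the controls and 8 to 9 for the difference between 2 and 5 days. At 2 days, the Log2FC of Tlr4 went from −0.15 to 0.17 in batch 2 alone and ranged from −0.29 to 0.13 when mice were left out. That of Myd88 went from −0.13 to 0.25 in batch 2 alone and ranged from −0.28 to 0.092. For Tlr3 in the controls it went from −0.13 to 0.060 in batch 2 alone. Relative to Csf1r in place of the pan-myeloid mean, 16 of 40 values had the other sign, and 3 did without Ptprc and Laptm5. Differences within batch 2 rest on 2 against 2 mice.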
